A study of Mus musculus with 3 samples.

Results

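RNase MRP and RNase P are ribonucleoprotein enzymes of the cell nucleus, and their components were followed here as 10 gene symbols in RNA bound to chromatin of mouse macrophages. The 10 symbols are Rmrp and Rpph1, which encode the RNA components, and Pop1, Pop4, Pop5, Rpp14, Rpp25, Rpp30, Rpp38 and Rpp40, which encode protein subunits. They were found by symbol. Rmrp is annotated under 2 gene IDs, so the 10 symbols correspond to 11 of the 55536 gene IDs measured. Total RNA depleted of ribosomal RNA was sequenced from the chromatin fraction of primary macrophages, differentiated from the bone marrow of C57BL/6J mice. Cultures had first received Lipid A, the membrane anchor of bacterial lipopolysaccharide, at 100 ng per ml for 12 h and kept without it for another 12 h. They were taken at minute 0 of a second exposure to 100 ng per ml. The study gives 1 group of 3 biological replicates in this state and no untreated or later group, so every value is a level and none is a response to Lipid A. The 3 libraries share 1 donor identifier. Separate animals are not named, so the spread between libraries, and every p-value from it, may be in part technical. The sex and age of the mice are not given.

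RNase MRP cleaves the ribosomal RNA precursor in the nucleolus, and RNase P removes the leader from the 5′ end of transfer RNA precursors. Each is built on 1 structured RNA, Rmrp in RNase MRP and Rpph1 in RNase P, and both RNAs are made by RNA polymerase III. The protein subunits named above are shared by both enzymes or described in both, and they bind and stabilise the RNA. Inherited mutations of the human RMRP gene cause cartilage-hair hypoplasia, a disorder of bone growth that often includes immune deficiency.

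The sequence of Rmrp is shown because its 2 gene IDs differ by only a few bases. The ribozyme entry Rmrp-201 (ENSMUSG00000088088.1) spans chr4:43492788-43493058 on the minus strand of mm10, 271 bases. The lincRNA entry Rmrp-202 (ENSMUSG00000115420.1) spans chr4:43492783-43493063, 281 bases, and contains the other whole. It is printed 5′ to 3′ from the GENCODE M21 transcripts, with T for U, and its capitals mark the 5 bases at each end that the shorter entry lacks.
Rmrp-202: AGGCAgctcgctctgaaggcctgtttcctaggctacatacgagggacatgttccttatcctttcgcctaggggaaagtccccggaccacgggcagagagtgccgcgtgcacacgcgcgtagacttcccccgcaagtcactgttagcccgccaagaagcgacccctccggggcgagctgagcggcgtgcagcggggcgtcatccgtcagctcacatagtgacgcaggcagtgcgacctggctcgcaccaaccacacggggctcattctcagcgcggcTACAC

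Rpph1 (ENSMUSG00000092837.1) lies at chr14:50807449-50807767 on the minus strand of mm10 and is a single exon of 319 bases. Its sequence is shown because part of it is repeated and part is shared with other annotated transcripts. The first 300 bases are printed, and the capitals mark a run of 21 bases that occurs in tandem, at bases 182 to 202 and 203 to 223.
Rpph1-201: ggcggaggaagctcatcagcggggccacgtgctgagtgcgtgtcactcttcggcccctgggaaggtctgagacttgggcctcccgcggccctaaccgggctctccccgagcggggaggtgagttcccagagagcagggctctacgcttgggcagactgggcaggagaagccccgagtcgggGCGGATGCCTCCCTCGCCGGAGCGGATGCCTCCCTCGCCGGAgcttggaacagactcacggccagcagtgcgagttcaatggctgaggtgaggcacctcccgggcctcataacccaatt

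The longest such repeat in Rmrp is 7 bases. GC content is 63.7% in Rmrp-202 and 67.1% in Rpph1.

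The start of Rpph1 lies 74 bases from the start of Parp2, a poly-ADP-ribose polymerase gene on the other strand. The bases before Rpph1 could therefore be read from the RefSeq promoter table (GRCm38.p6) on the strand of Rpph1, chr14:50807748-50807869. In RNA polymerase III promoters of this type the control elements lie before the gene. Of these, only the octamer and the TATA box were looked for, on both strands. The proximal sequence element was not looked for. The capitals mark the octamer (ATTTGCAT, found on the reverse strand 100 to 93 bases before the start) and a TATA match (TATAA, found on the reverse strand 33 to 29 bases before it). The octamer lies past the start of Parp2, within that gene. The last 20 bases belong to Rpph1.
Upstream of Rpph1: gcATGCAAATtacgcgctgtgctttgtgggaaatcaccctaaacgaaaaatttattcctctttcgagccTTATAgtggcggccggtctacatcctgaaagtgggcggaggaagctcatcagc

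Over the same positions of 32851 RefSeq promoter windows, 11.4% held TATAA, 0.718% held ATTTGCAT and 0.122% held both. The window was trimmed after both matches were known. The promoter table holds windows for 7 of the 10 symbols, and Rmrp, Rpph1 and Pop1 had no match in it.

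The gene tables give estimated reads per gene, called expected counts, and TPM, a level per effective length that is scaled to a fixed sum per library. Gene rows held 11802407 expected counts in replicate 1, 17201281 in replicate 2 and 19428384 in replicate 3. Levels are given below as CPM (expected counts per 1000000 of these), as CPM per kb of annotated exon, on which genes are compared, and as deposited TPM. The cells matched their label: 11 of 12 macrophage markers reached 1 TPM in each of the 3 libraries. Among them were Adgre1 at 347 ± 77.2 TPM and Mertk at 120 ± 15.5 TPM (SD, n = 3). The marker that did not was Cd163, at 0.08, 0.17 and 0.12 TPM. Markers of lymphocytes and granulocytes summed to 0.8, 0.68 and 1.14 TPM. Replicate 3 stood apart in stromal markers, which summed to 673 TPM there against 1.36 and 2.93 TPM in replicates 1 and 2, with all 11 markers highest there. Its Rplp1 mRNA, for a ribosomal protein, was also high, at 164 TPM against 10.8 and 9.44 TPM. Of 12 genes listed for RNA quality and cytoplasm, 9 were highest in replicate 3 and 3 in replicate 1. In replicates 1, 2 and 3, Rplp0 was at 11.0, 13.7 and 80.85 TPM and mt-Nd1 at 36.1, 18.2 and 101 TPM. The mitochondrial ribosomal RNA mt-Rnr1 was at 42.7, 4.56 and 40.7 TPM, lowest in replicate 2. The mean CPM and the log2 ratios of the RNA components are therefore also given without replicate 3. Other means and SDs include it. In libraries of whole fractions, fewer cells of a type and less RNA per cell cannot be told apart.

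Rmrp was among the most counted genes on chromatin. With both IDs summed it had 36708, 77105 and 91838 reads by the expected counts of replicates 1, 2 and 3, or 3110, 4483 and 4727 CPM. Replicates 2 and 3 lay close together and replicate 1 was lowest. The mean of 4107 ± 871 CPM (SD, n = 3; 3796 CPM without replicate 3) placed Rmrp 8th of the 55536 gene IDs by CPM. It took 0.311%, 0.448% and 0.473% of all gene counts in the 3 libraries.

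On the TPM scale Rmrp was the highest gene of all when its IDs are summed, at 39186, 110930 and 94297 TPM. It thus held 3.92%, 11.1% and 9.43% of the whole TPM sum of the libraries. The coefficient of variation between libraries was 46.1% in TPM against 21.2% in CPM. Replicate 1 was lowest on both scales, but replicates 2 and 3 changed places. The TPM level also depended on the tables used. In the read-based tables, made without the alignment, summed Rmrp was lower, at 24110, 31134 and 36309 TPM, with replicate 3 highest.

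Rpph1 had 2312, 2637 and 5388 counts, or 196, 153 and 277 CPM. Replicate 3 was highest and replicate 2 lowest, which is not the order of Rmrp. The mean was 209 ± 63.02 CPM (SD, n = 3; 175 CPM without replicate 3), rank 686 of the 55536 gene IDs. In TPM the values were 1637, 2375 and 3469, with a mean of 2494 ± 922 and rank 46, and replicate 1 rather than replicate 2 was lowest.

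**Figure D1:**
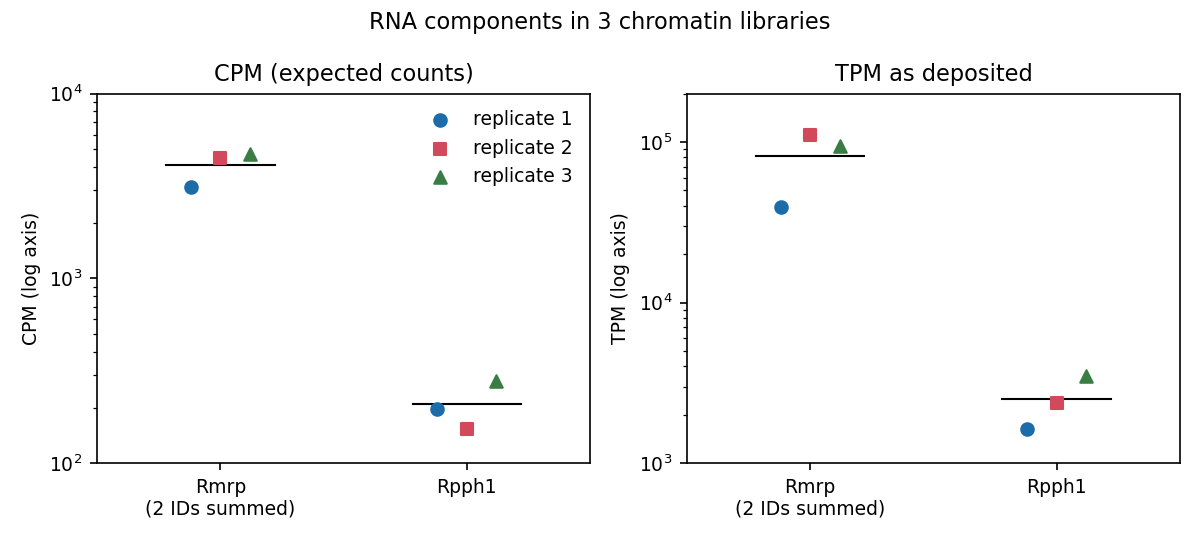
CPM (left) and deposited TPM (right) of Rmrp, both gene IDs summed, and Rpph1 in each of the 3 libraries, on log axes; horizontal lines are means. Rmrp lies above Rpph1 in every library on both scales, and the order of the libraries differs between the scales.

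Per kb of exon, Rmrp stood above Rpph1 18.0-fold, 33.2-fold and 19.3-fold in replicates 1, 2 and 3. The mean log2 ratio of CPM per kb was 4.50 with an SD of 0.48 (n = 3), higher in 3 of 3 libraries, and 4.61 without replicate 3. The levels behind it were 14614 ± 3101 CPM per kb for Rmrp and 655 ± 198 CPM per kb for Rpph1, with no overlap between them. An exact two-sided sign-flip test over 3 libraries gave p = 0.25, the smallest it can give. With the ribozyme ID of Rmrp alone the mean log2 ratio was 4.34. With the lincRNA ID alone it was -0.44, 3.03 and 1.10 in replicates 1, 2 and 3, so that the direction in replicate 1 turned.

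The 2 Rmrp IDs shared their reads very differently from library to library. The shorter ribozyme ID had 2983, 3379 and 4205 CPM in replicates 1, 2 and 3, and the longer lincRNA ID had 127, 1104 and 522 CPM. The ribozyme ID ranged 1.41-fold between libraries and the lincRNA ID 8.66-fold. The longer ID received 4.10%, 24.6% and 11.1% of the Rmrp counts, and 4.82%, 34.0% and 14.7% in the read-based tables, which were made from the reads without the alignment. Replicate 2 was highest and replicate 1 lowest in both.

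**Figure D2:**
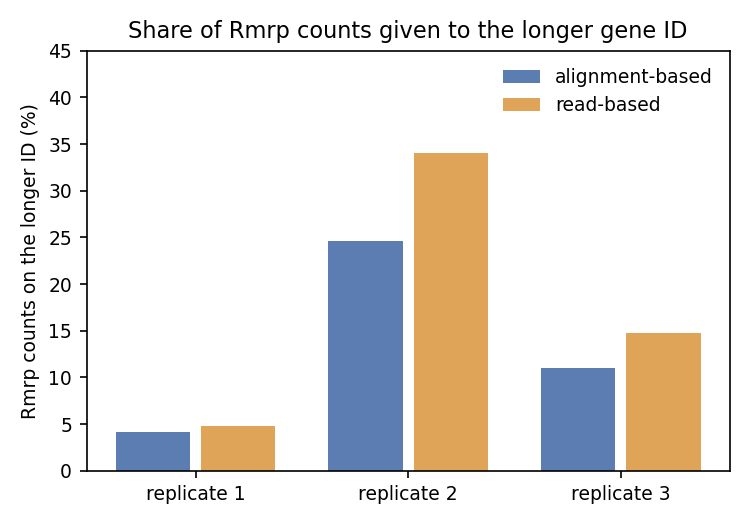
Share of Rmrp counts assigned to the longer of its 2 gene IDs in each library, from the alignment-based gene tables and the read-based tables. Both place replicate 1 lowest, replicate 3 between and replicate 2 highest.

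Among all genes, the spread of the lincRNA ID was one of the widest for its level. Each gene's spread between libraries was set against the trend over genes with edgeR's quasi-likelihood dispersions (14839 genes tested, 10 of the 11 member IDs among them). After Benjamini-Hochberg adjustment this called 0% of genes and therefore no member, while 5.03% of genes had an unadjusted p under 0.05. Rmrp-202 had an edgeR adjusted p = 0.21 and was the sole member ID with an unadjusted p under that level. Without replicate 3 it passed (edgeR adjusted p = 1.7e-14), when 0.5% of genes did, but that fit estimated no variation of the spread around the trend (infinite prior degrees of freedom). It did not pass without replicate 1 or without replicate 2 (edgeR adjusted p = 0.50 and 0.76). DESeq2 marked it as a dispersion outlier too, as it did 1.04% of the genes, and no other member. The 2 IDs summed to 1 row had an edgeR adjusted p = 0.99. Rpph1 did not pass either (edgeR adjusted p = 0.99).

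The fragment length moved with this division. The median difference between length and effective length was taken over gene rows longer than 1 kb. In tables of this kind it is close to the mean fragment length. It was 209, 269 and 251 bases in replicates 1, 2 and 3, beside 271 bases for Rmrp-201. The amount of starting RNA went the other way, at 1 µg, 250 ng and 500 ng. With 3 libraries their part in the division was not tested.

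The same lengths set the TPM of the RNA components. Rmrp-201 had an effective length of 79.3, 48.03 and 55.8 bases in replicates 1, 2 and 3, out of 271 annotated bases, and Rpph1 120, 78.8 and 90.02 bases out of 319. One CPM of Rmrp, both IDs summed, therefore equalled 12.6, 24.7 and 19.9 TPM. From replicate 1 to replicate 2 the TPM of Rmrp-201 was 2.28 times as high, which is the product of 1.13 for CPM, 1.65 for effective length and 1.22 for the sum over all rows. For Rpph1 the same step was 1.45 in TPM and 0.783 in CPM, opposite in direction. For Pop1, a long mRNA, the step was 1.35 in TPM, with 0.972 for CPM and 1.14 for effective length.

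**Figure D3:**
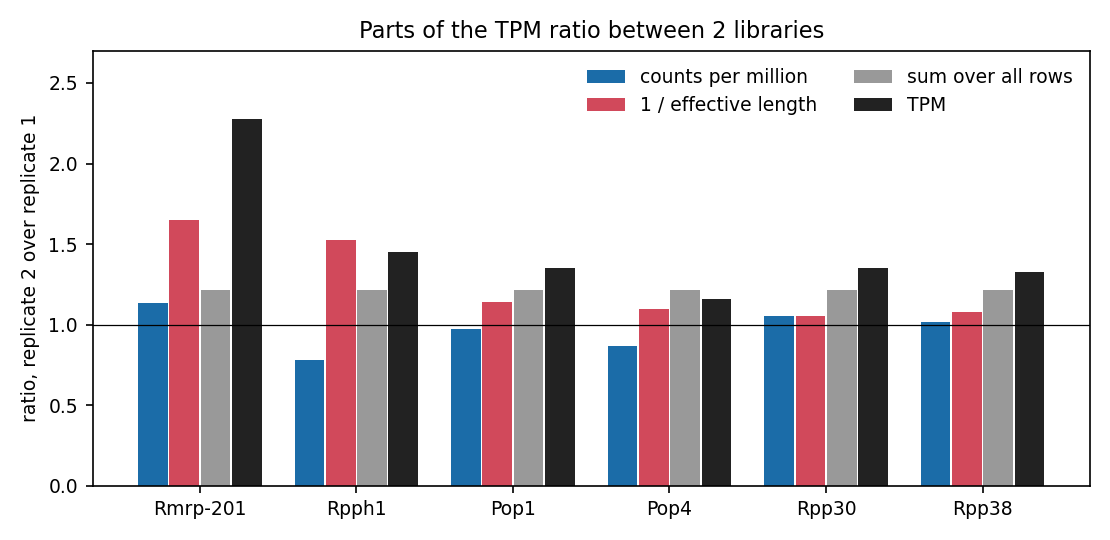
Ratio of replicate 2 to replicate 1 for 6 transcripts or genes, in CPM, in the inverse of the effective length, in the inverse of the sum over all rows, and in TPM, which is the product of the other 3; the line marks a ratio of 1. The effective length part is largest for Rmrp-201 and Rpph1 among the 6.

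Both RNA genes overlap another annotated gene. The exon of Rmrp shares 124 bases with exons of Ccdc107, a coiled-coil protein gene that runs on the opposite strand and stood at 8.01 ± 2.31 TPM (SD, n = 3). Of the 257 stretches of 25 bases in Rmrp, 38.9% occur in Ccdc107 transcripts in the opposite orientation, and none occur in another gene in the same orientation. The transcript concerned, Ccdc107-206, had 2, 5 and 7.01 counts in the alignment-based tables, and 39.3, 35.2 and 76.1 in the read-based tables. Those values are far below the Rmrp counts of the same libraries. The sources used here do not say whether the counting used strand.

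Rpph1 starts 35 bases before Ccnb1ip1, a gene on the same strand for a meiotic crossover factor. It overlaps that gene by 284 bases, of which 233 are exonic in both. Of the 295 stretches of 25 bases in Rpph1, 71.5% also occur in the same orientation in another gene's transcripts, 209 of them in Ccnb1ip1, 31 in Rprl3 and 16 in Rprl2, which are annotated as related ribozyme genes. Ccnb1ip1, Rprl2 and Rprl3 were each listed at 0 expected counts in all 3 libraries. The read-based tables gave Ccnb1ip1 2.0, 2.08 and 5.23 counts. The reads of Rpph1 and of these genes cannot be fully told apart, but nearly all were assigned to Rpph1.

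Other short structured RNAs give a measure of scale, with the same limit on effective length. Rn7sk, the RNA of the 7SK particle that holds P-TEFb inactive, had 1837, 1337 and 2107 CPM, and 14102, 18676 and 23877 TPM, below Rmrp in every library. Rn7s1 and Rn7s2, copies of the RNA of the signal recognition particle, had identical values of 490, 396 and 683 CPM each. Rn7sk had replicate 3 highest and replicate 2 lowest, as Rpph1 did, but the list shared no single order. Rnu2-10, a U2 small nuclear RNA named after its values were seen, had replicate 1 highest, at 221, 86.2 and 139 CPM. Of 18 such genes measured of 21 listed, 8 were listed at 0 in all 3 libraries, and 5 had an effective length of 0 in all 3, where the tables can give no TPM. Snord13, a U13 small nucleolar RNA, was among those at 0, so a 0 here does not show that an RNA is absent.

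The genes whose CPM followed that of Rmrp most closely over the 3 libraries were Fbxo25, Dnase1 and Ovca2, at Euclidean distances of 0.004, 0.007 and 0.015 in centred log2 CPM. For Rpph1 they were Gfer, Csnk2b and 5730507A11Rik, at 0.016, 0.024 and 0.025. With 3 libraries such likeness is common: of 11769 genes compared, 139 lay within 0.1 of Rmrp and 69 within 0.1 of Rpph1.

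The mRNAs of the protein subunits were present at low levels. All 8 together had 443, 641 and 777 counts, or 37.5, 37.3 and 40.0 CPM, so their sum was nearly the same in the 3 libraries. Of the 8, 6 reached 1 TPM in every library, and with the RNA components 8 of the 10 symbols did. Over all 22028 protein-coding gene IDs the share was 46.1%. The median mean level of the 8 was 4.21 TPM, against 0.913 TPM over all protein-coding IDs and 13.2 TPM over the 10150 of them at 1 TPM or more.

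Pop1, the largest protein subunit, had 11.6, 11.3 and 14.4 CPM in replicates 1, 2 and 3 (137, 194 and 280 counts), the most of the 8. Its level was 4.65, 6.27 and 6.56 TPM. Pop4, which binds the RNA, had 68, 86 and 105 counts and stood at 7.62, 8.81 and 7.41 TPM. The libraries agreed closely for Pop4, with a coefficient of variation of 7.07% in CPM and 9.50% in TPM.

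Pop5 and Rpp30, subunits with counterparts in archaeal RNase P, lay in the same range. Pop5 was at 5.41, 6.08 and 7.89 TPM (58, 91 and 87 counts) and Rpp30 at 6.53, 8.81 and 7.63 TPM (106, 163 and 173 counts). The coefficient of variation of Rpp30 was 3.40% in CPM and 14.9% in TPM. Rpp14 was lower, at 1.45, 2.41 and 2.69 TPM (26, 46 and 50 counts), and Rpp38, a protein of the kink-turn binding family, at 2.35, 3.12 and 2.34 TPM (23, 34 and 32 counts).

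Rpp40 and Rpp25 were the members that missed 1 TPM in at least 1 library. Rpp40 was at 1.14, 0.54 and 1.01 TPM, from 25, 26 and 45 counts, and only replicate 2 was below 1 TPM. In the read-based tables Rpp40 was at 1.92, 2.41 and 2.43 TPM. Rpp25, which pairs with the Pop7 protein in both enzymes, had 0, 1 and 5 counts, or 0, 0.06 and 0.25 TPM. A count of 0 in replicate 1 allows up to 3 counts, or 0.254 CPM. The 5 counts of replicate 3 equal 0.257 CPM, close to that limit, so no difference between the libraries was detectable for Rpp25 at this depth.

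In TPM the order of the means was Pop4, Rpp30, Pop5, Pop1, Rpp38, Rpp14, Rpp40 and Rpp25. The ranges of neighbours in this order overlapped among the first 4, although Pop4 and Pop1 did not overlap each other, and between Rpp38 and Rpp14. They did not overlap between Pop1 and Rpp38, Rpp14 and Rpp40, or Rpp40 and Rpp25. In CPM per kb of exon Pop1 came first at 3.28 ± 0.45, with no overlap with Rpp30 at 2.18 ± 0.07 (SD, n = 3), followed by Pop5, Pop4 and Rpp38. Rpp14, Rpp40 and Rpp25 were the lowest 3 on both of these alignment-based scales, without overlap between neighbours. The first place thus differed with the length used: the length behind TPM weights the transcripts of a gene, and the exon union does not. It also differed with the tables used. In read-based TPM Rpp30 and Pop1 were highest, at 23.7 ± 2.05 and 22.1 ± 1.88 TPM (SD, n = 3). Pop4 followed at 8.12 ± 0.56 TPM and Pop5 at 7.76 ± 1.61 TPM. Lower down, Rpp40, Rpp38 and Rpp14 stood at 2.25 ± 0.29, 2.24 ± 0.15 and 2.10 ± 0.26 TPM, with overlapping ranges. The low place of Rpp40 thus held in the alignment-based values only.

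**Figure D4:**
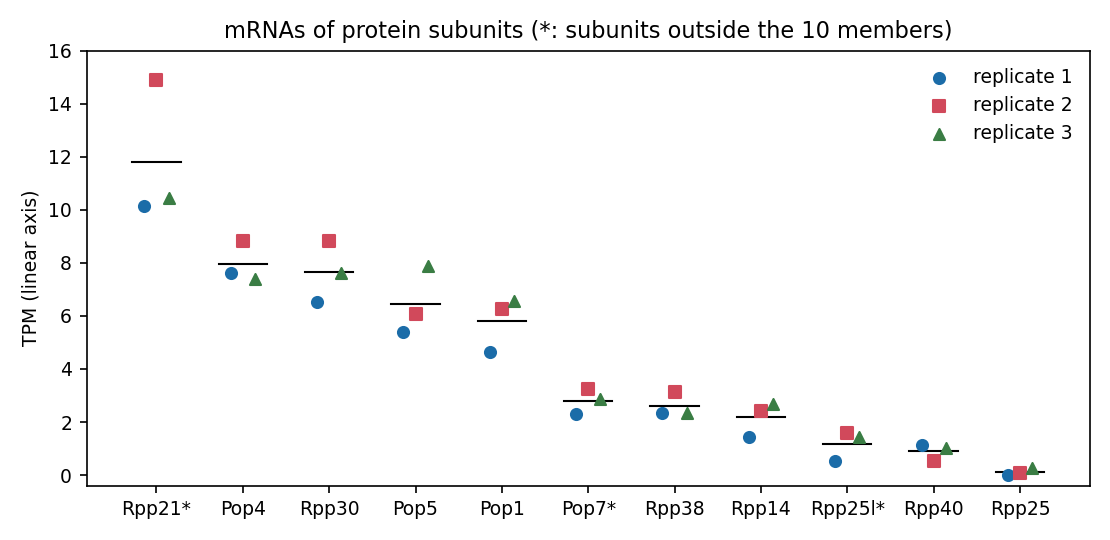
Deposited TPM of 11 protein subunit mRNAs in each library, the 8 members and 3 further nuclear subunits marked with an asterisk; horizontal lines are means. Neighbours in the order of the means overlap from Pop4 to Pop1, Rpp21 lies above all 8 members in every library, and Rpp25 is lowest.

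Of 3 other nuclear subunits outside the 10 symbols, Rpp21, described in RNase P and not in RNase MRP, was the highest. It stood at 11.8 ± 2.65 TPM (SD, n = 3), above each of the 8 protein members in every library on that scale. Its mean CPM of 2.89 was below those of Pop1, Rpp30, Pop4 and Pop5, at 12.4, 9.12, 5.39 and 4.89. It was above those of Rpp14, Rpp40, Rpp38 and Rpp25. The effective length behind the TPM of Rpp21 was short, at 310, 239 and 283 bases in replicates 1, 2 and 3. Pop7, the partner of Rpp25, was at 2.80 ± 0.49 TPM. Rpp25l, a paralog of Rpp25, was at 0.53, 1.57 and 1.44 TPM, from 4, 13 and 15 counts. Its level was above that of Rpp25 in each library.

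Per kb of exon, the mean of Rmrp and Rpph1 stood 3001-fold, 4499-fold and 5086-fold above the median protein subunit in replicates 1, 2 and 3. That mean is mostly Rmrp, at 11068, 15952 and 16822 CPM per kb, against 614, 481 and 869 for Rpph1. The fold values are thus not those of Rpph1, which lay closer to the protein subunits. The mean log2 ratio was 12.0 with an SD of 0.40 (n = 3), and 11.8 without replicate 3. The lowest RNA value and the highest protein value did not come near each other in any library: Rpph1 was at least 481 CPM per kb and Pop1 at most 3.80. An exact two-sided sign-flip test gave p = 0.25, the smallest possible with 3 libraries. In deposited TPM the mean log2 ratio was 13.2. These are levels of RNA on chromatin, and mRNA that has left the chromatin was not measured.

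None of the 7 protein members tested had a spread between libraries above the trend, with edgeR adjusted p from 0.99 to 1.00, beside 0% of all genes called. In simulated data with 13663 genes, it recovered none of the genes changed 2-fold in 1 library, 90% of those changed 4-fold and 100% of those changed 8-fold. The simulated spread was equal for all genes and smaller than the common one fitted here. Only genes with an expected mean of at least 50 counts were changed. In the real libraries Rmrp-202 ranged 8.66-fold and was not called, so these shares do not carry over to them. That no member was called is therefore weak evidence of an even level. The largest ratio between libraries among the 7 was 1.53, in CPM of Rpp40.

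By the annotated class of their transcripts, the protein subunits fell into 3 kinds in the alignment-based tables. Reads of RNA not yet spliced were not told apart from those of retained-intron transcripts. Rpp14 and Rpp38 have only protein-coding transcripts annotated. Of the Pop1 counts, 98.1% ± 0.51 (SD, n = 3) were on coding transcripts, but 75.9% ± 2.56 in the read-based tables. Pop4 and Rpp40 were divided, with 48.4% ± 10.7 and 56.6% ± 5.05 of the counts on retained-intron transcripts, which keep an intron and are not annotated as coding. The read-based tables gave 54.7% ± 9.18 and 74.0% ± 4.89. Rpp30 and Pop5 had most of their counts on transcripts of classes other than protein-coding.

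For Rpp30, 86.9%, 85.1% and 81.8% of the counts were on retained-intron transcripts in replicates 1, 2 and 3, and 89.8%, 90.6% and 89.04% in the read-based tables. Its 1 coding transcript, Rpp30-201, had 13.8, 24.2 and 31.5 counts. Over 6916 protein-coding genes with a retained-intron transcript and a mean of at least 20 counts, the median retained-intron share was 29.5%. The quartiles were 11.0% and 54.7%. The Rpp30 share lay above the upper quartile in every library, and the Pop4 share of 57.1%, 51.7% and 36.4% was above it in replicate 1 only. Rpp40, at 55.2%, 52.4% and 62.2%, was above it in replicates 1 and 3. Pop1, at 1.46%, 2.44% and 1.74%, lay below the lower quartile in each library. In the read-based tables Pop1 was higher, at 19.4%, 18.8% and 16.9%, and so was Rpp40, at 68.4%, 76.3% and 77.3%. The quartiles were taken from the alignment-based counts only. Over all Rpp30 transcripts, 7.36% of the stretches of 25 bases occur in the same orientation in other genes.

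For Pop5, 84.5%, 94.9% and 80.7% of the counts were on Pop5-203, a transcript annotated as a target of nonsense-mediated decay. The coding transcript Pop5-201 had 0 counts in all 3 libraries in the alignment-based tables, and 3.86, 21.2 and 10.8 in the read-based tables. Pop5-203 runs past the end of the coding transcript to base 115245351 of chromosome 5, and overlaps Rnf10, a ring-finger protein gene on the other strand at 46.6 ± 9.35 TPM, by 3940 bases of its gene body but by no exonic base. Both tables thus put most Pop5 reads on the longer transcript.

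**Figure D5:**
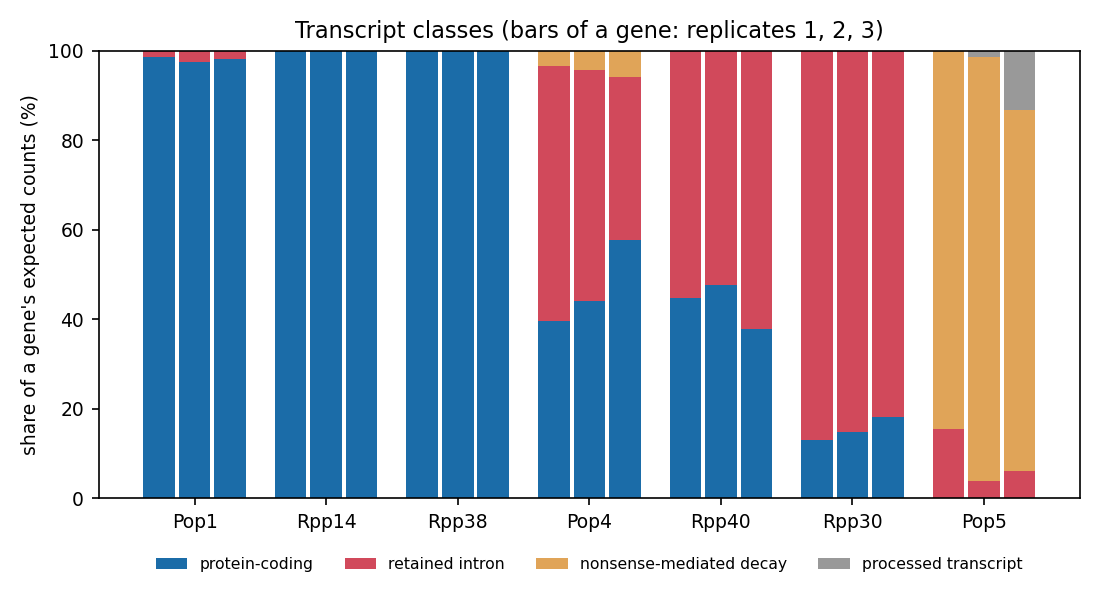
Share of each gene's expected counts on protein-coding, retained-intron, nonsense-mediated decay and processed transcripts, in 7 protein members (Rpp25 is left out for its low counts); the 3 bars of a gene are replicates 1, 2 and 3. By these alignment-based counts Pop1, Rpp14 and Rpp38 are nearly all coding, Rpp30 is mostly retained intron and Pop5 mostly nonsense-mediated decay.

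The read-based and alignment-based tables gave different levels for some members, and their totals differed too. Read-based CPM was 2.41 times the alignment-based mean for Rpp30, 3.12 times for Rpp40, 1.55 times for Rpp14 and 1.36 times for Pop1. It was 0.641 times for Rmrp and 0.638 times for Rpph1, with a mean log2 ratio between them of 4.52. Their counts themselves were 1.10 and 1.08 times as high in the read-based tables, whose totals are larger. For Pop4 and Pop5 it was 0.969 and 1.14 times.

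Other members also lie close to a further gene. Pop1 starts 49 bases from Rida, an imine deaminase gene on the other strand, which was at 1.39 ± 0.19 TPM. The start of Pop4 overlaps the antisense gene Gm44767 by 12 bases, and that gene had 0 counts in all libraries. Rpp40 shares 80 exonic bases with the antisense-strand lincRNA Gm48746, at 0, 0.37 and 0.07 TPM.

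The listed genes of the pathways around the enzymes were all detected. Of 18 genes of transfer RNA maturation, 18 reached 1 TPM in each library, and their median was 11.0 TPM. The highest by CPM were Xpot, which exports transfer RNA, at 21.1 ± 2.60 TPM, and Xpo5 at 13.1 ± 1.94 TPM, and the lowest was Clp1, an RNA kinase, at 2.49 ± 0.34 TPM (SD, n = 3). Of 14 ribosomal RNA processing genes 14 reached that level, led by the exonuclease gene Xrn2 at 93.8 ± 10.3 TPM and Ncl, encoding nucleolin, at 39.1 ± 5.97 TPM, with Fbl, encoding fibrillarin, lowest in CPM at 15.7 ± 2.59 TPM. Their median was 16.4 TPM. None of the 18 or of the 14 genes was called for its spread by edgeR, beside 0% of all genes.

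Genes of the machinery that transcribes Rmrp and Rpph1 were likewise all detected among those listed. Each of 12 genes listed around RNA polymerase III promoters, which include factors of the snRNA type, Brf1 of the gene-internal types and the general repressor Maf1, reached 1 TPM in all 3 libraries, among them Bdp1, a TFIIIB subunit, at 35.5 ± 9.02 TPM and Snapc3, a subunit of the complex that binds the proximal sequence element, at 60.4 ± 3.23 TPM. The lowest, Snapc2, was at 1.87 ± 0.98 TPM. All 13 RNA polymerase III subunits were too, with Polr3a and Polr3c, encoding the largest subunit and a subunit of the initiation subcomplex, at 26.8 ± 4.92 and 29.1 ± 0.65 TPM and Crcp at 3.46 ± 0.36 TPM. The medians of these lists were 14.6 and 12.3 TPM, beside 4.21 TPM for the 8 protein members.

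Mitochondria cut their transfer RNA precursors with a different RNase P, made of protein alone. Its 3 subunit genes stood at 6.28 ± 0.15 TPM for 1110008L16Rik, the annotation's name for the nuclease subunit gene, 5.19 ± 0.46 TPM for Trmt10c and 3.47 ± 2.14 TPM for Hsd17b10 (SD, n = 3). Hsd17b10 was at 1.93, 2.58 and 5.91 TPM, highest in replicate 3, the library with the high stromal and Rplp1 levels, and the part of those in its level was not tested. These mRNAs lay in the range of the nuclear protein subunits from Pop5 to Rpp38.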

How the data were processed

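Chromatin-bound RNA was quantified in 3 libraries of 1 group, each with a gene table, an alignment-based and a read-based transcript table. The authors deposited expected counts as they were estimated, with no scaling. The deposited TPM values are scaled to a fixed sum that includes tRNA and spike-in rows. The percent of a gene's abundance on each transcript was also deposited by the authors, but the shares given here are of counts. Per the README files deposited with the libraries, the first 2 kinds of table come from a transcriptome alignment and the read-based one from the reads, both on mm10 with GENCODE M21. The sources used here do not name the tools, their versions or a strand setting.

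From these, CPM was computed over gene rows; rows without a gene (1.31%, 0.476% and 0.240% of the counts in replicates 1, 2 and 3) were left out. Read-based counts totalled 18600052, 31838203 and 33200218. The precision is limited by these depths, and intervals and floors cover counting error only. No 2 libraries were duplicates (chi-square per degree of freedom of at least 35.6). The spread of each gene was tested with edgeR 4.0.16 in R 4.3.3 (rounded expected counts, filterByExpr, TMM, intercept only; upper-tail F test of the quasi-dispersion against its trend, Benjamini-Hochberg, threshold 0.05), after a test on simulated data. DESeq2 1.42.0 was an alternative. The rest was done with pandas 2.3.3, numpy 2.4.6, matplotlib 3.10.9 and scipy 1.17.1 under Python 3.11.15. The other alternatives were read-based tables, other scales, filters and thresholds, each Rmrp ID alone, and each replicate left out.

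The members and lists were chosen with earlier results of these data known. Named are all members, the 2 highest and the lowest gene by CPM of each pathway list, genes overlapping a member or starting within 1 kb of its start, and the 3 genes most like Rmrp and Rpph1 (mean of at least 50 counts).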

Additional observations from a re-analysis of the deposited data

How the results depend on the processing

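The log2 ratio of Rmrp over Rpph1 stayed within 1 SD of 4.50 in every alternative run but 1: with the lincRNA ID of Rmrp alone its mean was 1.23. Not all of these alternatives could have moved it. Leaving out 1 of 3 replicates cannot shift a mean by 1 SD. CPM with no length scaling shifts the ratio by an amount fixed by the lengths, and the length column leaves it unchanged. Without each replicate in turn the ratio ranged from 4.22 to 4.66. The log2 ratio of the RNA components over the protein subunits, 12.0, was 13.2 in TPM, 9.19 in CPM with no length scaling, 11.5 in the read-based tables and 11.2 with the length column of the gene tables, an alternative chosen after seeing the data. It ranged from 11.8 to 12.2 without each replicate. The 8 symbols at 1 TPM or more in every library became 5 at 5 TPM, 9 in the read-based tables or with TPM rescaled to the sum of protein-coding and long non-coding nuclear genes, and 8 to 9 without each replicate.

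No member was called for its spread by edgeR, and the count was also 0 with DESeq2 size factors, library size alone, no filter, a mean of at least 50 counts, read-based counts, or summed Rmrp IDs (added after seeing the data). It was 0 to 1 without each replicate and 1 by the DESeq2 outlier mark, Rmrp-202 both times. Over all genes 0 were called, against 49 of 25532 with no filter, 10 of 24320 with read-based counts, 155 by the DESeq2 mark, and 0 to 73 without each replicate; the cause was not tested. The edgeR adjusted p of Rmrp-202 with all 3 libraries ranged over the other settings from 0.089 with no filter to 0.32 with library size alone; it was 0.50 without replicate 1 and 0.76 without replicate 2.

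TMM scaling moved no member's mean by as much as 1 SD. Leaving out each replicate moved none that far either, but with so few libraries it cannot, so that result is no test. The read-based tables moved 9 of 12 means in CPM and 7 of 12 in TPM, both Rmrp IDs and their sum counted. Renormalized TPM moved all 12. No paired analysis was possible because the labels give 1 group. Depth limits Rpp25, with at most 5 counts, and the other protein members, with at most 280.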
